A study of Mus musculus with 20 samples.

Results

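The nuclear genes that encode the subunits of the oxidative phosphorylation system were followed in activated mouse CD8+ T cells given murine IL-21 (mIL-21) or 21h10, a designed protein that mimics IL-21. Members were chosen by gene symbol alone, as the Nduf genes with a subunit letter and number, Sdha to Sdhd, the Uqcr genes with Cyc1, Cycs, the Cox4 to Cox8 genes and the Atp5 genes. This rule took 86 of the 23992 gene symbols in the tables: 37 of complex I, 4 of complex II, 9 of complex III, cytochrome c, 18 of complex IV and 17 of complex V. The CD8+ T cells came from spleens of wild-type C57BL/6J mice aged 6 to 8 weeks and were purified by negative selection and activated through CD3 and CD28 for 48 hours. After a night of rest they spent 24 hours with or without cytokine. Experiment 1 compared unstimulated cells with cells given either cytokine, at doses of 100 pM and 1 nM. Experiment 2 had its own unstimulated cells and doses of 10 nM and 100 nM. Each of these 10 groups had duplicate libraries (dup 1 and dup 2, n = 2), and every cell, the unstimulated ones included, had been pre-activated in the same way. Cells were treated in culture, so the groups describe activated T cells outside the animal. The labels do not say whether duplicates came from separate mice or cultures, so p-values measure the spread between these libraries, which may be technical.

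Complexes I to IV of the inner mitochondrial membrane pass electrons from NADH and succinate to oxygen, with cytochrome c as the soluble carrier between complexes III and IV, and complex V uses the resulting proton gradient to make ATP. Most subunits are encoded in the nucleus, and several have alternative forms that are used in particular tissues or conditions. T cells depend on this system for their growth after activation and for the persistence of memory cells, and IL-21 signals in them through STAT3. A few symbols stand apart from their grouping here, which follows the gene's prefix: the Ndufa4 protein works in complex IV, Cox7a2l is a factor that joins complexes III and IV, and Atp5sl and Atp5s are named after ATP synthase without being subunits of its core.

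Libraries held 36824740 to 94070730 reads on genes in experiment 1 and 27072917 to 43300094 in experiment 2. The 5 T cell markers found in the tables (a sixth, Trac, is not among them) were summed on the scale of RPKM recomputed with TMM-scaled library sizes, here called the level. Their sum was 1055 to 1057 in unstimulated and 1202 to 1563 in treated cells of experiment 1, and 1420 to 1489 and 1701 to 1830 in experiment 2. The myeloid markers summed to 0.220 to 0.313 and 3.21 to 17.3 in experiment 1 and to 0.798 to 0.946 and 9.15 to 23.1 in experiment 2, nearly all of it Itgam, with the defining markers Csf1r, Cd14 and Lyz2 near 0. The B cell markers, nearly all of it Cd79b, summed to 8.55 to 8.61 in unstimulated cells, 11.1 to 11.9 with mIL-21 at 100 pM and 5.04 to 8.41 in the other treated groups of experiment 1, and to 7.67 to 9.65 and 4.08 to 5.98 in experiment 2. The dendritic cell markers, mostly Itgax with Flt3, Xcr1 and Siglech near 0, summed to 0.843 to 1.07 in unstimulated cells, 8.43 to 8.52 with mIL-21 at 100 pM and 1.13 to 2.94 in the other treated groups of experiment 1, and to 2.19 to 2.66 and 1.70 to 5.75 in experiment 2. The part of these marker changes in the results was not tested.

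In unstimulated cells of experiment 1 the levels of the members ran over a wide range within each complex. Complex II was the most even, from 87.4 for Sdhc to 172 for Sdhb. Complex I ran from 9.08 for Ndufa7 to 232 for Ndufa4, complex III from 87.4 for Uqcrfs1 to 312 for Uqcrh, complex IV from 1.36 for Cox6a2 to 457 for Cox4i1 among members at a level of 1 or more, and complex V from 3.46 for Atp5s to 912 for Atp5b. The low level of Ndufa7 is that of its longest transcript, NR_103514, which had 5294 reads over all libraries. Its most-read transcript, NM_023202, had 34846, so this level does not stand for the whole gene. In experiment 2 the same 5 genes (Ndufa4, Sdhb, Uqcrh, Cox4i1 and Atp5b) led their complexes, from 110.0 for Sdhb to 547 for Atp5b. Levels are scaled within an experiment, so they are compared within an experiment only. Of the 86 members, 82 passed the filter on low counts in experiment 1 and 80 in experiment 2. Those that did not were forms known from other tissues or conditions. Cox8b had no read in any library, Cox7b2 had at most 1 read, Cox8c at most 6 and Ndufa4l2 at most 7, and in experiment 2 Cox4i2 had no read and Cox6a2 at most 6. The tables hold no row from mitochondrial DNA, so the subunits encoded there are not analysed here.

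The share of all gene reads that fell on the 86 members was lower in treated than in unstimulated cells. In experiment 1 it was 1.16% to 1.17% in the 2 unstimulated libraries and 0.859% to 0.915% in the 8 treated ones. In experiment 2 it was 0.868% to 0.963% and 0.672% to 0.740%. The treated and unstimulated libraries did not overlap in either experiment. Since these are bulk samples, fewer cells with a given level and less of the RNA per cell cannot be told apart. By complex, the share on complex V in experiment 1 was 0.509% in both unstimulated libraries and 0.338% to 0.362% in the treated ones. Complex IV, as grouped here by prefix, was the exception in experiment 1. Of reads, 0.167% to 0.170% in unstimulated and 0.164% to 0.183% in treated cells fell on it, so that the groups overlapped. This grouping counts Cox7a2l, whose level there rose from 162 and 162 to 294 to 338. It leaves out Ndufa4, whose level fell from 228 and 235 to 92.0 to 108. In experiment 2 complex IV was lower as well, at 0.148% to 0.164% against 0.120% to 0.138%. Cytochrome c took the opposite course in the 2 experiments, with 0.0391% to 0.0401% against 0.00933% to 0.0149% in experiment 1 and 0.0155% to 0.0180% against 0.0185% to 0.0259% in experiment 2.

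**Figure D1:**
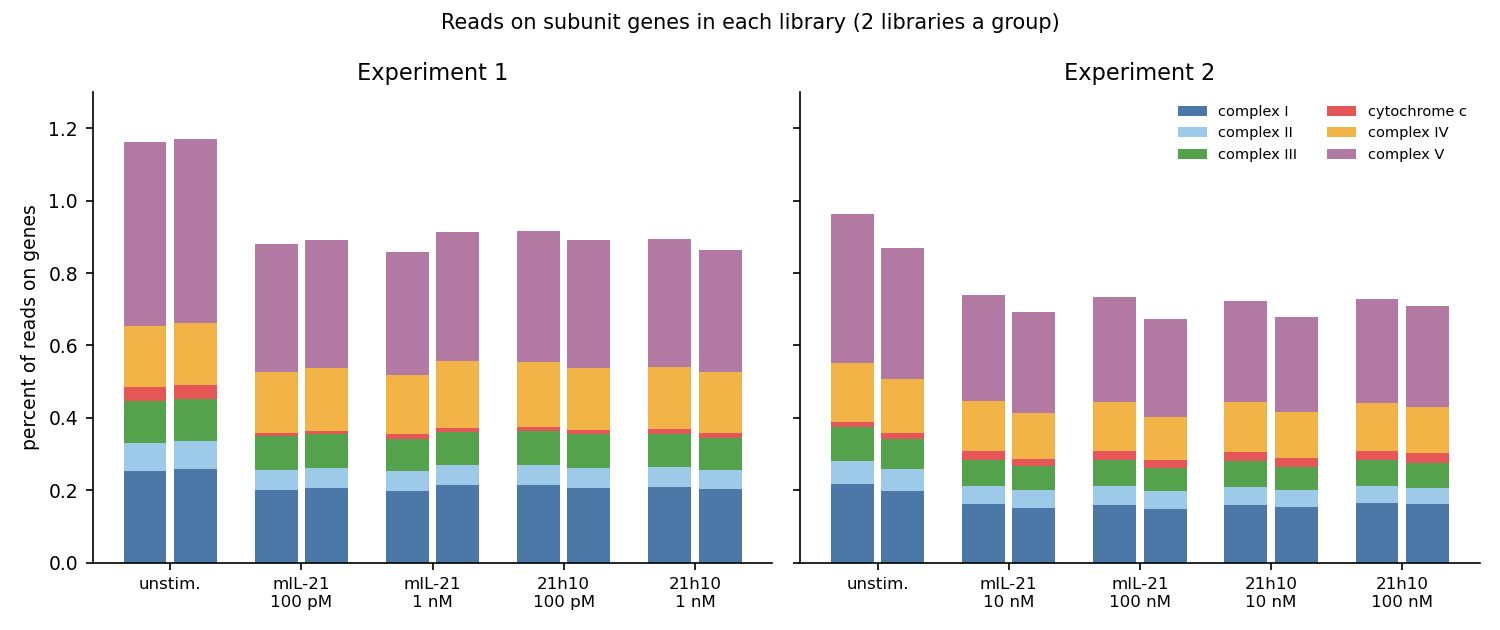
Share of all gene reads (percent, linear axis from 0) that fell on the members of each complex in every library of experiment 1 and experiment 2. Each stacked bar is a single library (n = 2 per group), with 1 segment per complex. The segments of complexes I, II, III and V are smaller in treated than in unstimulated libraries in both experiments. That of cytochrome c is smaller in treated libraries in experiment 1 and larger in experiment 2.

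Most members fell with cytokine in experiment 1. Of 82 tested, 65 were lower and 12 higher with mIL-21 at 100 pM (edgeR's quasi-likelihood test, Benjamini-Hochberg adjusted p under 0.05 over all genes), with a median log2 fold change of -0.49. With mIL-21 at 1 nM the counts were 59 lower and 13 higher (median -0.36), with 21h10 at 100 pM 58 and 14 (median -0.33), and with 21h10 at 1 nM 55 and 15 (median -0.27). The response was broad in the whole transcriptome too. Among all 13974 genes tested 77.7%, 80.1%, 81.6% and 80.3% were called in the same order, of which 39.4%, 40.3%, 41.3% and 42.1% were lower and 38.3%, 39.9%, 40.2% and 38.3% higher. Of the members, 93.9%, 87.8%, 87.8% and 85.4% were called, and 79.3%, 72.0%, 70.7% and 67.1% were lower. In all 4 treated groups alike, 55 members (67.1% of those tested) were lower, against 32.0% of all genes, and 12 (14.6%) were higher, against 28.6%. The median log2 fold change over all genes was -0.04 to 0.00 in the 4 comparisons.

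In experiment 2 fewer members were called. Of 80 tested, mIL-21 lowered 44 and raised 4 at 10 nM and lowered 46 and raised 2 at 100 nM. For 21h10 the counts were 43 lower and 2 higher at 10 nM, then 39 and 7 at 100 nM, and the 4 medians lay between -0.31 and -0.34. Among all 13772 genes 46.2%, 46.2%, 50.1% and 50.8% were called, with 23.7%, 23.7%, 24.9% and 25.8% lower. In all 4 treated groups 30 members (37.5%) were lower and 2 (2.5%) higher, against 16.3% and 15.5% of all genes. The counts of experiment 2 depended on single libraries more than those of experiment 1: 48 calls with mIL-21 at 10 nM became 27 without dup 2 of that group, 48 with mIL-21 at 100 nM became 26 without its dup 2, 45 with 21h10 at 10 nM became 29 without its dup 2, and no other library moved these counts by over 1.5 times. The 27 members that were lower in all 8 treated groups made up 33.8% of those tested, against 8.11% of all genes. The single member higher in all 8 was Atp5sl (1.25% of those tested, against 7.94% of all genes). The other member higher throughout experiment 2 was Cycs. Library totals in place of TMM moved the median of all genes against unstimulated cells to as low as -0.11 and limma on log2(RPKM + 1) to as low as -0.29, both in experiment 2. For 21h10 at 100 nM, where the split of 7 higher and 39 lower became 1 and 64 on the latter scale, the members' median relative to that of all genes was -0.29 by TMM and -0.28 on that scale.

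**Figure D2:**
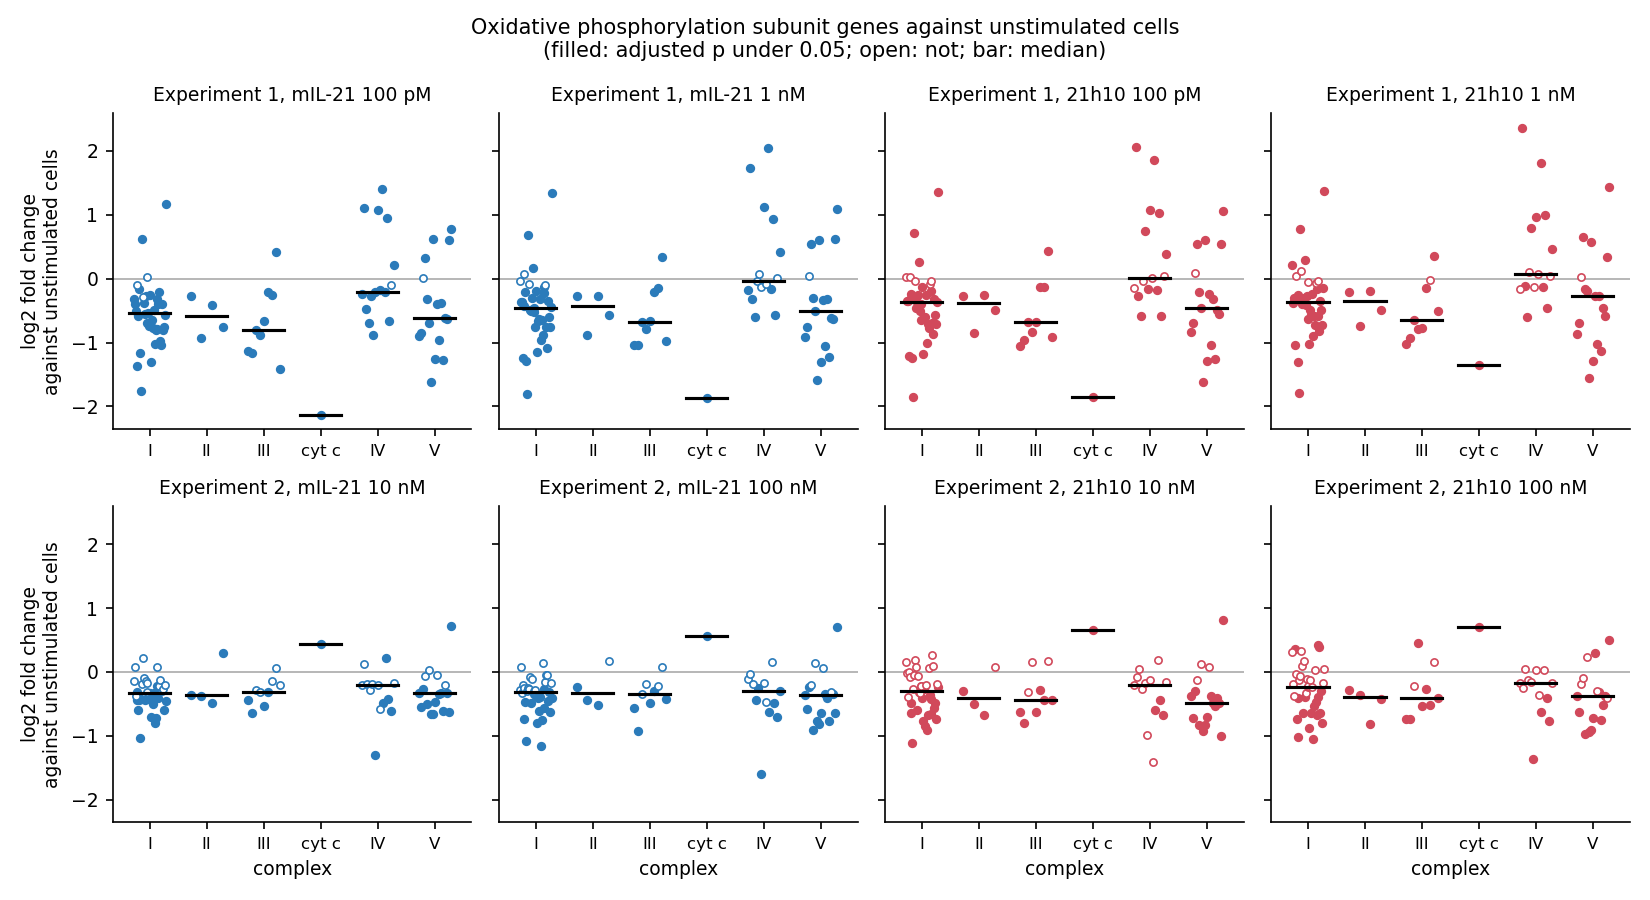
Log2 fold change of each tested member against the unstimulated cells of its own experiment, by complex and treated group. Each point is a gene and the bars mark medians. Among complexes I to V, the complex III median lies lowest in experiment 1. The complex IV median is near 0 there in 3 of the 4 groups. In experiment 2 the medians of complexes I to V are all below 0.

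Complex I takes electrons from NADH and is the largest of the complexes. Of its 36 tested members, 31, 29, 28 and 27 were lower and 2, 3, 3 and 4 higher in experiment 1 with mIL-21 at 100 pM, mIL-21 at 1 nM, 21h10 at 100 pM and 21h10 at 1 nM, with medians of -0.54, -0.45, -0.36 and -0.36. In experiment 2, 21, 19, 18 and 15 were lower (mIL-21 at 10 nM and 100 nM, then 21h10 at the same doses), with medians between -0.33 and -0.24. The catalytic core fell with the rest in experiment 1. Ndufv1, which binds NADH (at chr19:4007499-4012755 in GRCm38), had levels of 61.2 and 61.3 in unstimulated and 33.6 to 40.2 in treated cells in experiment 1, and 49.9 and 37.2 against 23.5 to 30.1 in experiment 2. It was lower in all 8 treated groups, by -0.76 to -0.71 (SE 0.0692 to 0.0707) and -0.80 to -0.60 (SE 0.128 to 0.130) on the log2 scale, and the treated libraries did not overlap the unstimulated ones. Ndufs1, which carries iron-sulfur clusters, was at 38.8 and 38.8 against 19.8 to 24.5 in experiment 1, a log2 fold change of -0.89 to -0.72. In experiment 2 its levels were 32.2 and 32.9 against 32.8 to 36.1, and none of its 4 comparisons passed the threshold (log2 fold changes 0.02 to 0.13).

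Ndufa5, an accessory subunit of the peripheral arm (chr6:24518662-24527690), had the deepest fall of complex I in experiment 1. Its levels were 81.4 and 84.9 without cytokine, 21.9 and 27.7 under mIL-21 at 100 pM, 21.1 and 26.2 under mIL-21 at 1 nM, 23.5 and 22.7 under 21h10 at 100 pM, and 25.4 and 23.1 under 21h10 at 1 nM. All 8 treated libraries lay far below the unstimulated ones, with log2 fold changes of -1.85 to -1.75 (SE 0.0947 to 0.0989, largest adjusted p 2.15e-11 edgeR quasi-likelihood, Benjamini-Hochberg). In experiment 2 they were 48.4 and 46.6 without cytokine, 39.3 and 31.4 under mIL-21 at 10 nM, 44.5 and 32.3 under mIL-21 at 100 nM, 39.4 and 39.2 under 21h10 at 10 nM, and 40.7 and 45.9 under 21h10 at 100 nM. There every treated library was below both unstimulated ones, but only mIL-21 at 10 nM passed the threshold (log2 fold change -0.43, SE 0.144, edgeR adjusted p 0.0232), and that call was lost without dup 1 of the unstimulated cells (-0.40) or dup 2 of mIL-21 at 10 nM (-0.27). Ndufc1, a small membrane-arm subunit, fell in both experiments, from 80.9 and 79.3 to 35.8 to 46.1 and from 58.4 and 46.5 to 19.4 to 30.5. Its log2 fold changes were -1.03 to -0.90 and -1.16 to -0.79. Ndufa4, the most abundant member grouped here, was lower by -1.31 to -1.17 and -1.11 to -1.02 on the log2 scale, from 228 and 235 to 92.0 to 108 and from 166 and 142.2 to 61.7 to 83.1. Ndufa4l2, its hypoxia-induced relative, stayed at 7 reads or fewer in every library.

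Against this direction, Ndufv3, an accessory subunit of the NADH-binding module (chr17:31520115-31531326), rose in experiment 1. Its levels were 47.98 and 50.05 without cytokine, 108 and 114 under mIL-21 at 100 pM, 113 and 135.3 under mIL-21 at 1 nM, 129 and 121 under 21h10 at 100 pM, and 127 and 126 under 21h10 at 1 nM. The treated libraries were all above the unstimulated ones, with log2 fold changes of 1.17 to 1.37 (SE 0.0672 to 0.0677). In experiment 2 it read 70.5 and 69.3 without cytokine, 53.0 and 49.1 under mIL-21 at 10 nM, 50.9 and 54.5 under mIL-21 at 100 nM, 59.1 and 59.9 under 21h10 at 10 nM, and 75.0 and 69.0 under 21h10 at 100 nM. It fell there with mIL-21 at 10 nM (-0.45), mIL-21 at 100 nM (-0.41) and 21h10 at 10 nM (-0.23), and 21h10 at 100 nM overlapped the unstimulated libraries (0.04, SE 0.0818). The call with 21h10 at 10 nM was lost without any of 3 libraries: dup 1 of the unstimulated cells or either duplicate of that group. Ndufa6, chosen after its values were seen as the other complex I member higher in all 4 groups of experiment 1, went from 97.2 and 101 to 144 to 172 there, by 0.62 to 0.78 on the log2 scale, and was not called in experiment 2 (-0.25 to -0.04).

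Complex II oxidizes succinate and so joins the citric acid cycle to the respiratory chain. All 4 of its members fell in every treated group of experiment 1, with medians of -0.58, -0.42, -0.38 and -0.35. Sdhb, the iron-sulfur subunit (chr4:140961271-140979198), changed most and Sdha, the flavoprotein that binds succinate, and Sdhc least. Sdhb had levels of 172 and 173 without cytokine, 91.0 and 89.7 under mIL-21 at 100 pM, 90.9 and 96.9 under mIL-21 at 1 nM, 96.9 and 93.5 under 21h10 at 100 pM, and 108 and 98.7 under 21h10 at 1 nM in experiment 1. Its treated libraries were all below the unstimulated ones, by -0.93 to -0.74 on the log2 scale. Sdha went from 106 and 106 to 86.1 to 91.8 (-0.27 to -0.21) and Sdhc, a membrane anchor, from 87.3 and 87.4 to 65.3 to 79.5 (-0.41 to -0.19). In experiment 2 these 3 were again lower in all 4 groups, with log2 fold changes of -0.50 to -0.36 for Sdhb, -0.36 to -0.24 for Sdha and -0.81 to -0.48 for Sdhc, so that Sdhc had the largest range there. The call of Sdha with mIL-21 at 100 nM was lost without either duplicate of that group (-0.25 and -0.22), and that of Sdhb with 21h10 at 100 nM without dup 2 of it (-0.32).

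Sdhd, the other membrane anchor (chr9:50596340-50603849), behaved differently at the high doses. In experiment 1 it fell from 135.2 and 131 to 76.0 to 97.7. In experiment 2 its levels were 103 and 90.7 without cytokine, 119 and 118 under mIL-21 at 10 nM, 123 and 94.3 under mIL-21 at 100 nM, 109 and 94.7 under 21h10 at 10 nM, and 75.8 and 68.5 under 21h10 at 100 nM. Both libraries with 21h10 at 100 nM lay below all other libraries of that experiment, while those with mIL-21 at 10 nM lay above the unstimulated ones. It was higher with mIL-21 at 10 nM (log2 fold change 0.29, SE 0.113, edgeR adjusted p 0.0436) and lower with 21h10 at 100 nM (-0.42, SE 0.115, edgeR adjusted p 0.00628). The first call was lost without dup 2 of the unstimulated cells (0.21) or either duplicate of mIL-21 at 10 nM (0.29 and 0.30), and the second without dup 2 of 21h10 at 100 nM (-0.35).

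Complex III passes electrons from ubiquinol to cytochrome c. In experiment 1, 8, 8, 8 and 7 of its 9 members were lower and 1 was higher, and its medians, -0.80, -0.68, -0.68 and -0.65, were the lowest of complexes I to V in each group. Cyc1, the cytochrome c1 subunit (chr15:76343513-76346260), went from 100.2 and 105 to 45.3 to 54.1 and Uqcr10, a small subunit, from 212 and 221 to 96.1 to 114. Treated and unstimulated libraries did not overlap for either gene, with log2 fold changes of -1.13 to -1.03 and -1.16 to -0.94. Uqcrfs1, the Rieske iron-sulfur subunit, moved least, from 88.1 and 86.8 to 70.9 to 87.0, and with 21h10 at 1 nM it was not called (-0.02, SE 0.0469), while its calls with mIL-21 at 1 nM and 21h10 at 100 pM were each lost without dup 1 of the unstimulated cells. Uqcrh, the hinge subunit (chr4:116066965-116075070) and the most abundant member of the complex, was the exception in direction. It rose from 315 and 309.7 to 379 to 429.5 in experiment 1, by 0.34 to 0.43 on the log2 scale, and was not called in experiment 2 (0.06 to 0.18).

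In experiment 2, 4, 5, 6 and 6 complex III members were lower and at most 1 was higher. Cyc1 was at 55.7 and 38.1 in unstimulated and 25.7 to 36.5 in treated cells, lower in all 4 groups by -0.74 to -0.44. Its unstimulated duplicates differed more than most. Without dup 1 of the unstimulated cells the calls with mIL-21 at 10 nM (-0.14), mIL-21 at 100 nM (-0.26) and 21h10 at 10 nM (-0.34) were lost. The call with mIL-21 at 10 nM was also lost without either duplicate of that group (-0.36 and -0.52). Those with mIL-21 at 100 nM and 21h10 at 10 nM were also lost without dup 2 of their own group (-0.45 and -0.49). Uqcr10 was at 130.3 and 86.9 against 49.4 to 72.6, with log2 fold changes of -0.93 to -0.64. Its call with mIL-21 at 10 nM was lost without dup 1 of the unstimulated cells (-0.32). Uqcrb, which helps to hold the ubiquinone site (chr13:66900576-66905350), had levels of 125 and 148 without cytokine, 127 and 93.1 under mIL-21 at 10 nM, 132 and 108 under mIL-21 at 100 nM, 155 and 147 under 21h10 at 10 nM, and 179 and 195 under 21h10 at 100 nM. The 21h10 libraries at 100 nM were above all others, with a log2 fold change of 0.45 (SE 0.132, edgeR adjusted p 0.0101), a call that was lost without dup 1 of the unstimulated cells (0.33) or dup 2 of 21h10 at 100 nM (0.39). In experiment 1 Uqcrb had fallen in every treated group, from 171 and 166 to 86.5 to 101. Near-identical copies, mainly Gm2962, cover 62.8% of its transcript, so reads may be split between them.

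Cycs encodes somatic cytochrome c, which carries electrons from complex III to complex IV and, when released from mitochondria, activates caspases. It lies at chr6:50562563-50566569 (GRCm38, minus strand), and its reads were counted on exons of NM_007808. The 250 bases upstream of its RefSeq start (chr6:50566570-50566819, minus strand) are shown since Cycs fell in every treated group of experiment 1 and rose in every one of experiment 2. They are printed 5′ to 3′ with no capitals, because none of the 4 motifs searched (NRF-1, ETS, YY1 and E-box, described with the other promoters) has an exact match there.
Cycs: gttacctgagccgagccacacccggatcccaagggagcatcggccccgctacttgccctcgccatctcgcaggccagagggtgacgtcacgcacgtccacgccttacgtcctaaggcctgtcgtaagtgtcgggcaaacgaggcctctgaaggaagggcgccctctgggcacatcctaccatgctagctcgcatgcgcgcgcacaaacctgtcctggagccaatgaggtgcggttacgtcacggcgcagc

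In experiment 1 the level of Cycs was 133 and 128 without cytokine, 28.8 and 30.9 under mIL-21 at 100 pM, 35.7 and 35.8 under mIL-21 at 1 nM, 36.2 and 36.5 under 21h10 at 100 pM, and 50.6 and 51.7 under 21h10 at 1 nM. The 8 treated libraries were far below the unstimulated ones and followed an order by group, with mIL-21 at 100 pM lowest, mIL-21 at 1 nM and 21h10 at 100 pM next to each other, and 21h10 at 1 nM highest. The log2 fold changes were -2.13, -1.87, -1.85 and -1.35 (SE 0.0465 to 0.0480, largest adjusted p 1.63e-14 edgeR quasi-likelihood, Benjamini-Hochberg), and all were called whichever library was left out. In experiment 2 the levels were 48.3 and 55.7 without cytokine, 79.5 and 60.6 under mIL-21 at 10 nM, 85.0 and 69.0 under mIL-21 at 100 nM, 81.8 and 81.3 under 21h10 at 10 nM, and 83.1 and 85.3 under 21h10 at 100 nM. Here every treated library was above both unstimulated ones, with log2 fold changes of 0.43, 0.57, 0.65 and 0.70 (SE 0.120). The smallest of these was lost without dup 1 of the unstimulated cells (0.33) or dup 1 of mIL-21 at 10 nM (0.22). Cycs was the only member lower in every treated group of experiment 1 and higher in every treated group of experiment 2. There are 14 near-identical copies of Cycs, which together cover 33.7% of its transcript.

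Complex IV reduces oxygen to water and, as grouped here, showed the weakest fall in experiment 1. Of its 15 tested members, 9, 5, 5 and 4 were lower and 5, 5, 6 and 6 higher, with medians of -0.21, -0.03, 0.01 and 0.08. The 5 higher in all 4 groups were the scarce forms Cox4i2, Cox6b2 and Cox7a1, the linking factor Cox7a2l, and Cox8a. Counts and medians weigh these scarce forms like the abundant subunits, and Ndufa4 is not among the 15. The abundant common forms moved little. Cox4i1, an early-assembling subunit that most tissues use, was at 451 and 462 in unstimulated and 366 to 443 in treated cells, and only the mIL-21 groups were called (-0.24 and -0.18), the second of which was lost without either unstimulated library or without dup 1 of mIL-21 at 1 nM (-0.03). Cox6a1 was at 224 and 230.3 against 185 to 254, Cox6b1, which bridges the dimer, at 327 and 321 against 265 to 313, and Cox7a2, the common form of subunit 7a, at 162 and 162 against 137.8 to 151. Their log2 fold changes lay within -0.28 to 0.10, -0.21 to -0.12 and -0.21 to -0.13. Cox5b, a matrix-side subunit, fell clearly, from 241 and 241 to 142.2 to 175 (log2 -0.69 to -0.58), while Cox8a, the common form of subunit 8, rose from 225 and 231 to 264 to 329 (log2 0.22 to 0.46).

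Cox7a2l (chr17:83501917-83514333), the factor that links complexes III and IV into supercomplexes, rose most among the abundant members of this group. Its levels in experiment 1 were 162 and 162 without cytokine, 306 and 317 under mIL-21 at 100 pM, 294 and 325 under mIL-21 at 1 nM, 338 and 323 under 21h10 at 100 pM, and 316 and 329 under 21h10 at 1 nM. The treated libraries lay close together and far above the unstimulated ones, with log2 fold changes of 0.94 to 1.03 (SE 0.0518 to 0.0520). In experiment 2 it was at 229.5 and 211 against 218 to 268, and only mIL-21 at 10 nM was called (0.22), which was lost without dup 2 of the unstimulated cells or dup 1 of that group (0.16 in both cases). Copies cover 17.8% of its transcript.

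The forms of complex IV subunits known from muscle, testis or lung were scarce, and of these Cox7a1, Cox6b2 and Cox4i2 rose in all 4 treated groups of experiment 1. Cox7a1, the heart and muscle form of subunit 7a (chr7:30184171-30186030), had levels of 2.84 and 2.63 without cytokine, 7.94 and 6.58 under mIL-21 at 100 pM, 10.6 and 12.2 under mIL-21 at 1 nM, 11.1 and 9.16 under 21h10 at 100 pM, and 9.93 and 9.45 under 21h10 at 1 nM. The treated libraries were all above the unstimulated ones, with log2 fold changes of 1.41 to 2.05, and Cox7a1 made up 1.60% to 1.72% of Cox7a1 and Cox7a2 together in unstimulated and 4.42% to 7.46% in treated cells. Cox6b2, the testis form of subunit 6b, went from 7.004 and 6.20 to 12.4 to 16.5 (log2 0.97 to 1.12). Cox4i2, the hypoxia-responsive form of subunit 4, was at 0.253 and 0.350 in unstimulated and 0.494 to 1.55 in treated cells, and its share of both subunit 4 forms stayed at or below 0.4001%. Its log2 fold changes were 1.10, 1.73, 2.06 and 2.37, the first of which was lost without dup 1 of the unstimulated cells or dup 1 of that group. Cox6a2, the muscle form of subunit 6a, read 1.31 and 1.41 without cytokine, 0.720 and 0.739 under mIL-21 at 100 pM, 1.40 and 1.43 under mIL-21 at 1 nM, 3.06 and 1.68 under 21h10 at 100 pM, and 2.59 and 2.13 under 21h10 at 1 nM. It was lower with mIL-21 at 100 pM (-0.89), not called with mIL-21 at 1 nM (0.07) and higher with 21h10 at both doses (0.74 and 0.79), and each of these calls was lost without at least 1 library.

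In experiment 2 these scarce forms did not rise. Cox7a1 was at 2.89 and 1.49 against 0.487 to 1.99 and was called in no group (-1.41 to -0.36). Cox6b2 was at 4.76 and 2.48 against 1.11 to 2.28 and was lower in 3 of 4 groups (-1.60 to -0.99), which were all lost without dup 1 of the unstimulated cells (-0.75 to -1.05). Of 13 complex IV members tested, 4, 7, 3 and 4 were lower and 1, 0, 0 and 0 higher, with medians between -0.30 and -0.18. Cox7a2 fell in all 4 groups, from 129 and 103 to 71.6 to 88.7 (log2 -0.62 to -0.49), Cox4i1 was called in none (-0.21 to -0.12), and Cox5b in none (-0.20 to 0.05). Cox6a1, Cox6b1 and Cox8a were each called lower with mIL-21 at 100 nM alone (-0.44, -0.26 and -0.30), and each of these calls was lost without at least 2 single libraries.

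Complex V makes ATP from ADP. Of its 17 members, 12 were lower and 4 higher in each treated group of experiment 1, with medians of -0.61, -0.51, -0.46 and -0.27. In experiment 2, 12, 12, 13 and 10 were lower and 1, 1, 1 and 2 higher, with medians between -0.33 and -0.49. Atp5b, the catalytic beta subunit (chr10:128083307-128090388) and the most abundant of all members, had levels of 917 and 906 without cytokine, 509 and 504 under mIL-21 at 100 pM, 527 and 550.0 under mIL-21 at 1 nM, 571 and 551 under 21h10 at 100 pM, and 576 and 550.2 under 21h10 at 1 nM in experiment 1. In experiment 2 they were 595 and 498 without cytokine, 371 and 375 under mIL-21 at 10 nM, 369 and 360.3 under mIL-21 at 100 nM, 349 and 315 under 21h10 at 10 nM, and 359 and 348 under 21h10 at 100 nM. In both experiments the treated libraries lay below the unstimulated ones, by -0.85 to -0.70 and -0.72 to -0.55 on the log2 scale. Atp5a1, the alpha subunit, fell from 456 and 450.0 to 235 to 256 (-0.92 to -0.84) and from 333 and 295 to 237 to 252 (-0.38 to -0.33). Atp5e, the small epsilon subunit, was at 246 and 266 against 191.5 to 235 in experiment 1 (-0.31 to -0.16, with the calls of both 21h10 groups lost without single libraries). In experiment 2 it was at 223 and 129.8 against 78.9 to 124 (-0.98 to -0.51), and the unstimulated duplicates stood far apart. The call with mIL-21 at 10 nM was lost without dup 1 of the unstimulated cells (-0.06) or either duplicate of that treated group (-0.51 in both cases).

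Atp5sl (chr7:25619414-25625550), a factor used in the assembly of complex I despite its name, rose in both experiments. In experiment 1 its levels were 9.47 and 10.02 without cytokine, 17.1 and 16.3 under mIL-21 at 100 pM, 20.1 and 21.5 under mIL-21 at 1 nM, 20.4 and 20.1 under 21h10 at 100 pM, and 26.9 and 25.5 under 21h10 at 1 nM. In experiment 2 they were 11.7 and 10.4 without cytokine, 17.2 and 19.4 under mIL-21 at 10 nM, 18.3 and 17.7 under mIL-21 at 100 nM, 18.9 and 20.1 under 21h10 at 10 nM, and 16.6 and 14.6 under 21h10 at 100 nM. Treated and unstimulated libraries did not overlap in either, and the log2 fold changes were 0.78 to 1.43 (SE 0.0584 to 0.0601) and 0.50 to 0.81 (SE 0.103 to 0.105). The other complex V members higher in all 4 groups of experiment 1 besides Atp5g2, chosen after their values were seen, were Atp5d, the delta subunit, at 143.2 and 140.9 against 177 to 239, and Atp5s, at 3.38 and 3.54 against 3.90 to 5.56. Neither rose in experiment 2 (-0.21 to -0.06 and -0.999 to -0.41).

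The c-ring, the rotor of ATP synthase in the membrane, is built from identical copies of 1 small protein that 3 genes encode, Atp5g1 (chr11:96072793-96075694), Atp5g2 (chr15:102662868-102671047) and Atp5g3 (chr2:73908447-73912464), all on the minus strand of GRCm38. They are shown because these 3 genes for the same mature subunit took different courses. The sequences are stretches upstream of the RefSeq start that no annotated exon of the gene covers, for Atp5g1 chr11:96075695-96075881 and for Atp5g2 chr15:102671128-102671297, followed by 30 bases around a motif match in capitals. The match is the E-box CACGTG at position -44 in Atp5g1 (chr11:96075658-96075687) and the NRF-1 motif (GCGCA, any base, GCGC, read on either strand) at position -42 in Atp5g2 (chr15:102671070-102671099) and position 12 in Atp5g3 (chr2:73911295-73911324). Position 0 is the first base after the 250 upstream bases of the window searched. For Atp5g1 (window chr11:96075582-96075881) and Atp5g3 (window chr2:73911277-73911576) that base lies inside the gene span given above. Their positions are therefore not distances from the outer end of the gene. Atp5g3 also holds the E-box, at position -238, not shown here.
Atp5g1: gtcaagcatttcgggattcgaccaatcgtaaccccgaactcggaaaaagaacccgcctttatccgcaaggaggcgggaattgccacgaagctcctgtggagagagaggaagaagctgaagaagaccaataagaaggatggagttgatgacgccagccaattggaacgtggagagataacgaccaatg
Atp5g2: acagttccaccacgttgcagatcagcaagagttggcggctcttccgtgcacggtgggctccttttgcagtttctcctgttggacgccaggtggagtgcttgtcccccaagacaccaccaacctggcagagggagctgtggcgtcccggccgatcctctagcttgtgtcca
Atp5g1 E-box: agggactccgaaCACGTGggtgggggagct
Atp5g2 NRF-1: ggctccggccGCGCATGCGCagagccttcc
Atp5g3 NRF-1: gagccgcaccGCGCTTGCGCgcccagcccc
A match is a description of letters and not a bound site.

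In experiment 1 Atp5g1 had levels of 106 and 106 without cytokine, 35.1 and 34.0 under mIL-21 at 100 pM, 31.8 and 38.5 under mIL-21 at 1 nM, 36.1 and 33.1 under 21h10 at 100 pM, and 36.7 and 35.8 under 21h10 at 1 nM. Atp5g3 had 359.6 and 364 without cytokine, 152 and 149.8 under mIL-21 at 100 pM, 142.6 and 151 under mIL-21 at 1 nM, 152 and 144 under 21h10 at 100 pM, and 154 and 141.7 under 21h10 at 1 nM. Both fell in every treated library, by -1.62 to -1.55 (SE 0.0704 to 0.0725) and -1.30 to -1.26 (SE 0.0512 to 0.0518) on the log2 scale. Atp5g2, with 229 and 237 without cytokine, 354 and 359.8 under mIL-21 at 100 pM, 329 and 382 under mIL-21 at 1 nM, 372 and 335 under 21h10 at 100 pM, and 369 and 325 under 21h10 at 1 nM, rose in every treated library, by 0.57 to 0.61 (SE 0.0699 to 0.0704). All 12 of these calls held whichever library was left out. Atp5g2 thus went from 33.0% to 33.5% of the summed level of the 3 genes to 64.6% to 66.8%, Atp5g3 from 51.5% to 51.8% to 26.4% to 28.3% and Atp5g1 from 15.03% to 15.2% to 6.26% to 7.13%. The sum itself went from 695 to 707 to 502 to 572.

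In experiment 2 all 3 genes fell in every treated group. The level of Atp5g1 was 47.97 and 37.0 without cytokine, 29.1 and 24.9 under mIL-21 at 10 nM, 25.1 and 24.9 under mIL-21 at 100 nM, 25.0 and 19.7 under 21h10 at 10 nM, and 22.9 and 21.4 under 21h10 at 100 nM. That of Atp5g2 was 301 and 214 without cytokine, 164 and 163 under mIL-21 at 10 nM, 153 and 139.003 under mIL-21 at 100 nM, 152 and 138.1 under 21h10 at 10 nM, and 143.4 and 132 under 21h10 at 100 nM. That of Atp5g3 was 239 and 177 without cytokine, 151 and 151 under mIL-21 at 10 nM, 148 and 119 under mIL-21 at 100 nM, 133.8 and 121 under 21h10 at 10 nM, and 132 and 119.8 under 21h10 at 100 nM. No treated library reached the unstimulated ones for any of the 3 genes, and the log2 fold changes were -0.94 to -0.66, -0.90 to -0.65 and -0.73 to -0.47. The unstimulated duplicates differed, and the call of Atp5g3 with mIL-21 at 10 nM was lost without dup 1 of the unstimulated cells (-0.23). The make-up of the sum hardly moved, with Atp5g2 at 49.98% to 51.1% in unstimulated and 47.0% to 49.6% in treated cells, while the sum went from 428 to 588 to 273 to 344. Atp5g2 was the only member higher in all 4 groups of experiment 1 and lower in all 4 of experiment 2. Copies cover 69.0% of the Atp5g1 transcript (mainly Gm10039) and 88.2% of that of Atp5g2 (mainly Gm10175), so their reads may be split with those copies.

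**Figure D3:**
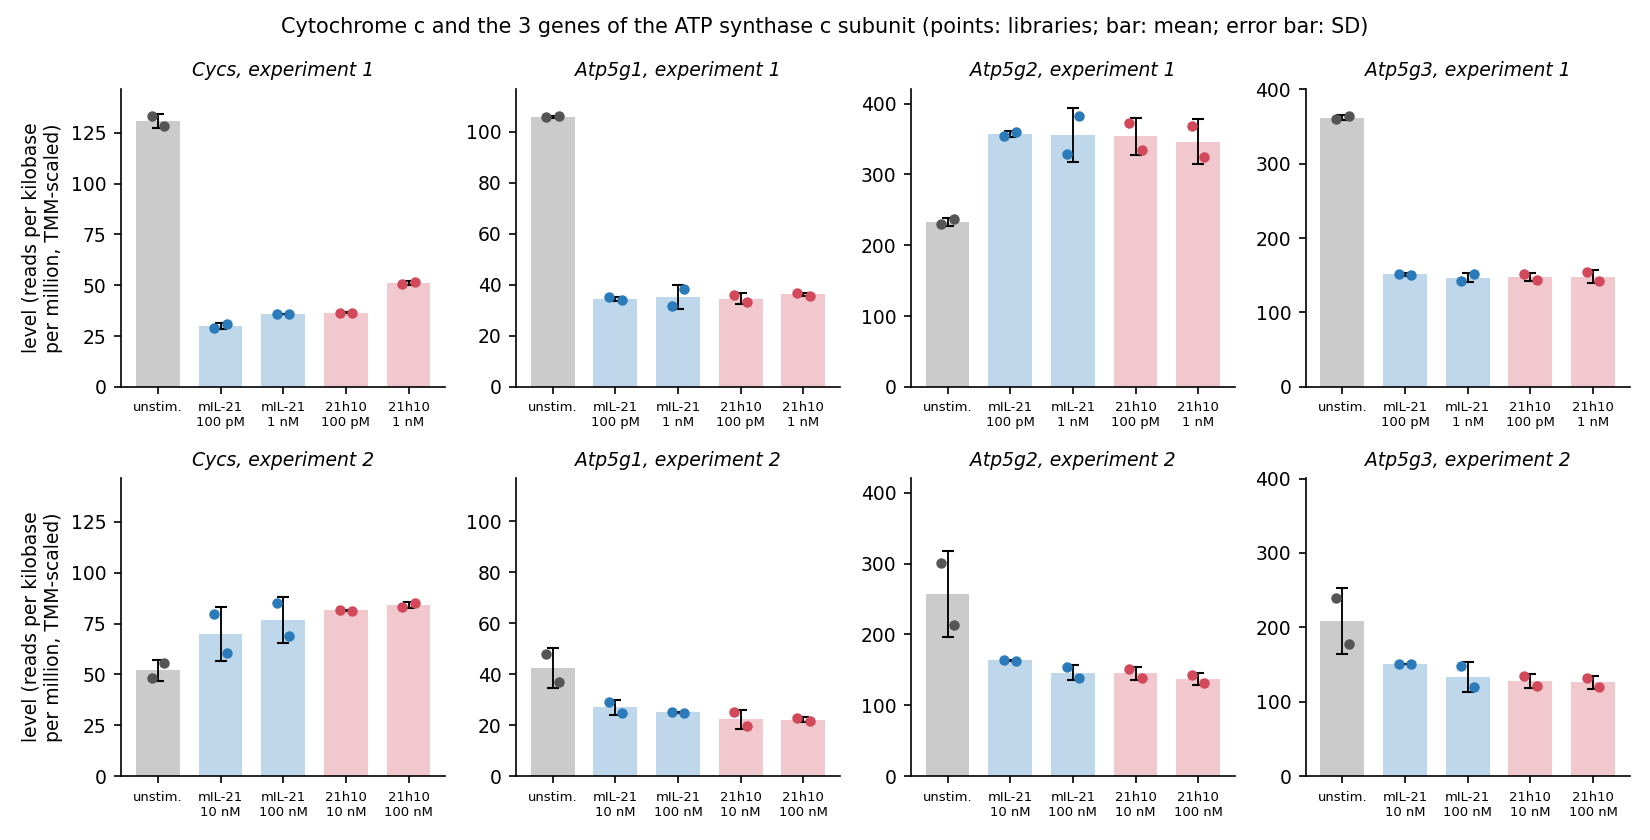
Levels (RPKM with TMM-scaled library sizes, linear axis from 0) of Cycs, Atp5g1, Atp5g2 and Atp5g3 in every library of both experiments. Points are single libraries (n = 2 per group); Cycs lies below its unstimulated level in experiment 1 and above it in experiment 2, and Atp5g2 above it in experiment 1 and below it in experiment 2.

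Whether the response differed between the experiments was tested in a fit of all 20 libraries, as the averaged response of the treated groups in experiment 2 minus that in experiment 1. Dose and experiment changed together and cannot be told apart in this comparison. Of 82 members tested 23 had a higher and 25 a lower response in experiment 2, with a median difference of -0.02, against 64.7% of all genes called (31.2% higher and 33.5% lower). With limma on log2(RPKM + 1) the split was 14 higher and 32 lower. The members' count was thus near the background. The largest positive differences on the log2 scale among the named members were those of Cycs, 2.33 (SE 0.115), and Ndufa5, 1.45 (SE 0.150). The largest negative ones were those of Cox7a1, -2.56 (SE 0.349), Cox6b2, -2.45 (SE 0.281), Ndufv3, -1.63 (SE 0.0858), and Atp5g2, -1.46 (SE 0.126). Of the 80 members tested in both experiments, 54 had a negative mean response in both, 3 a positive one in both, 12 a positive one in experiment 1 alone and 11 in experiment 2 alone.

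**Figure D4:**
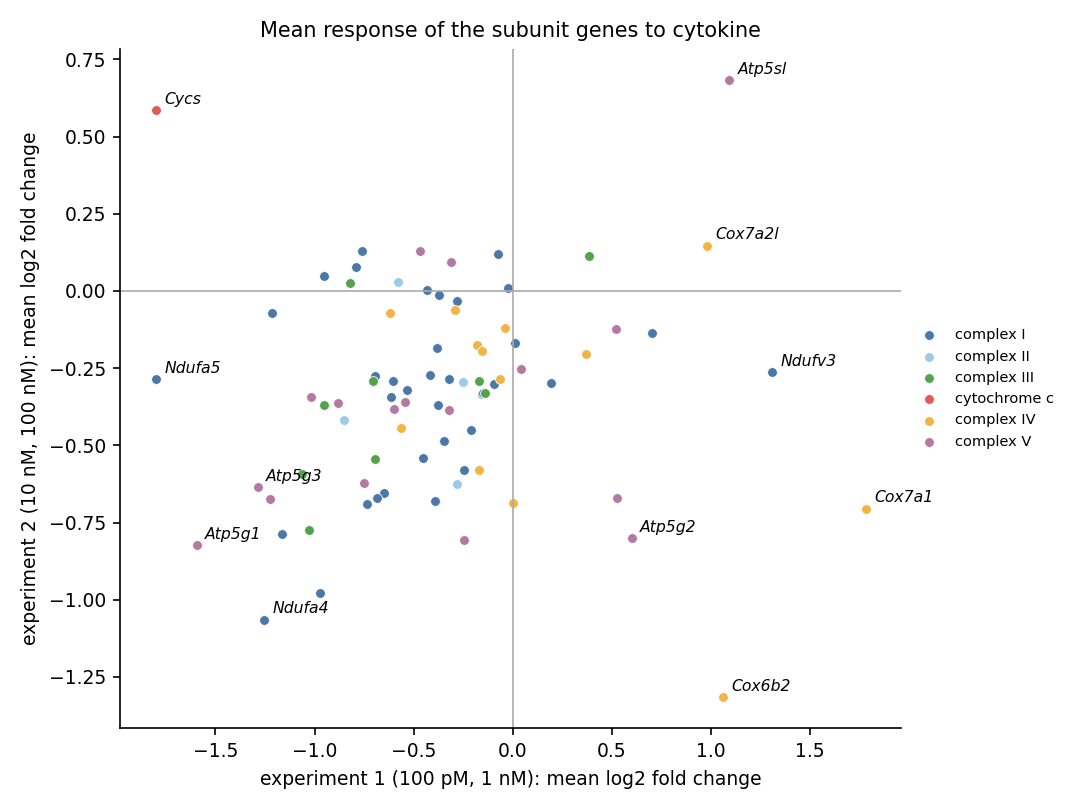
Averaged log2 fold change of the treated groups, experiment 1 on the horizontal and experiment 2 on the vertical axis, for the 80 members tested in both. Each point is a gene coloured by complex; 54 lie at the lower left of both zero lines, with Cycs in the upper left and Atp5g2 in the lower right.

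At 100 pM the members that differed between the cytokines were higher with 21h10. Of 82 tested, 31 (37.8%) were higher and 0 lower, with a median log2 difference of 0.12, where 38.6% of all genes were called (19.6% higher and 19.0% lower). At 1 nM, 14 (17.1%) were higher and 0 lower (median 0.07), against 37.7% of all genes (19.6% higher). The share called was thus near the background at 100 pM and below it at 1 nM, and the calls lay on 1 side. The split depended on the scaling: with library totals in place of TMM the counts were 12 higher and 4 lower at 100 pM and 6 and 2 at 1 nM, and with limma on log2(RPKM + 1) they were 9 and 4, and 11 and 2. Library totals and that scale also moved the median of all genes, to -0.09 and -0.09 at 100 pM and -0.11 and -0.03 at 1 nM. Relative to the median of all genes, the members' median was 0.13 by TMM, 0.13 with library totals and 0.10 on the RPKM scale at 100 pM, and 0.08, 0.08 and 0.06 at 1 nM. The 31 calls fell to 12 without dup 1 of 21h10 at 100 pM and to 15 and 16 without dup 1 or dup 2 of mIL-21 at 100 pM, and the 14 calls at 1 nM rose to 35 without dup 2 of mIL-21 at 1 nM. By complex, 13 of the 31 were in complex I, 2 in complex II, 3 in complex III, 7 in complex IV and 5 in complex V, and the last was Cycs.

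The differences were small for most genes and larger for a few. Cycs, whose levels are given above, was higher with 21h10 than with mIL-21 by 0.29 (SE 0.0472, edgeR adjusted p 0.000138) at 100 pM and by 0.52 (SE 0.0472, edgeR adjusted p 1.49e-07) at 1 nM. At each dose both 21h10 libraries lay above both mIL-21 libraries. Uqcrq, a complex III subunit chosen after its values were seen, had levels of 160.5 and 159.7 without cytokine, 61.8 and 58.6 under mIL-21 at 100 pM, 71.8 and 90.3 under mIL-21 at 1 nM, 89.2 and 80.8 under 21h10 at 100 pM, and 112 and 114 under 21h10 at 1 nM. At each dose its 21h10 libraries lay above its mIL-21 libraries, with differences of 0.49 and 0.48. Atp5b was higher by 0.15 at 100 pM, a call that was lost without either duplicate of mIL-21 at 100 pM or dup 1 of 21h10 at 100 pM (0.12 to 0.16). Sdhc (0.16), Uqcrfs1 (0.13) and Uqcr10 (0.20) were called at 100 pM as well and were also lost without single libraries. Cox4i2 differed by 0.96 at 100 pM, a call that was lost without dup 2 of mIL-21 at 100 pM (0.72) or dup 2 of 21h10 at 100 pM (0.79), and Cox6a2 by 1.63, at levels of 0.494 to 1.32 and 0.720 to 3.06 in these libraries.

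From 100 pM to 1 nM, 18 members rose and 0 fell with mIL-21 (median 0.08, 34.5% of all genes called), and 7 rose and 0 fell with 21h10 (median 0.04, 39.2% of all genes). These counts again moved with the scaling, to 6 higher and 5 lower for mIL-21 and 5 and 4 for 21h10 with library totals, and with limma on log2(RPKM + 1) to 5 and 11 for mIL-21 and 5 and 2 for 21h10. The 18 calls were 5 and 7 without dup 1 or dup 2 of mIL-21 at 100 pM, 32 without dup 1 and 11 without dup 2 of mIL-21 at 1 nM. Cycs rose by 0.26 (SE 0.0478, edgeR adjusted p 0.000398) with mIL-21 and by 0.49 (SE 0.0466, edgeR adjusted p 1.81e-07) with 21h10. When 21h10 at 100 pM was set against the higher mIL-21 dose, 1 nM, no member was called (0.737% of all genes). For this pair 4 members had an unadjusted p under 0.05, and the log2 differences of the members ran from -0.19 to 0.68 with a median of 0.03. Over the 55 members lower in all 4 groups, the median level was 61.5% of the unstimulated one with mIL-21 at 100 pM, 64.5% with mIL-21 at 1 nM, 66.9% with 21h10 at 100 pM and 70.5% with 21h10 at 1 nM. Among all 82 tested, mIL-21 at 100 pM had the lowest mean of the treated groups in 60.

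**Figure D5:**
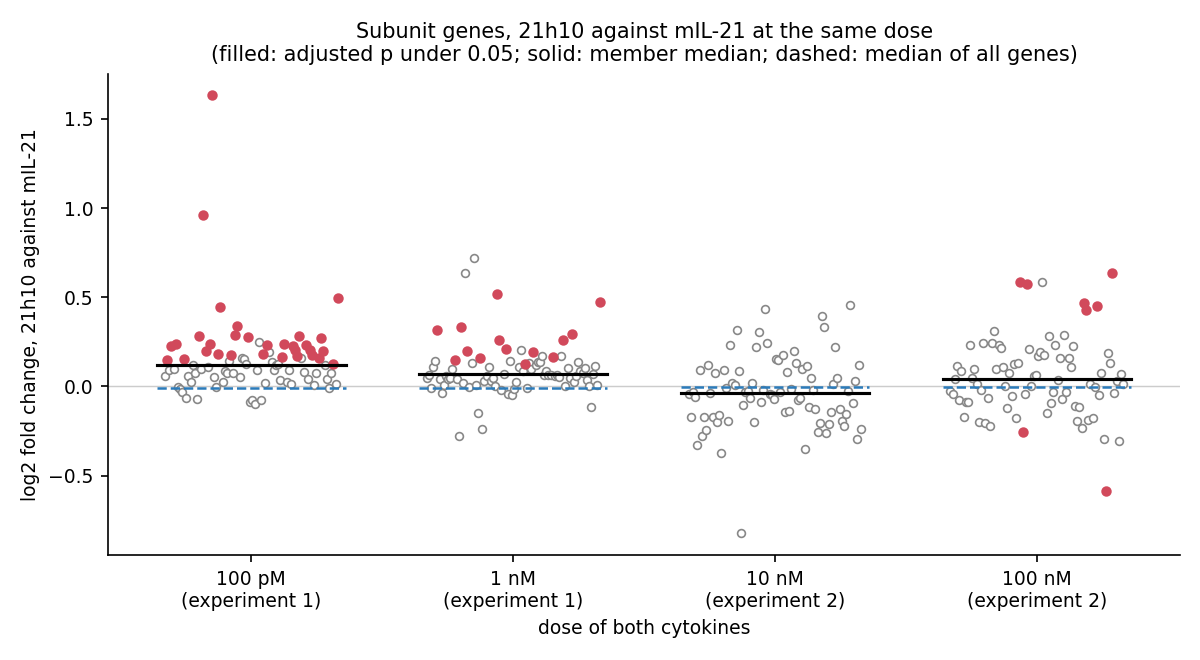
Log2 difference of 21h10 against mIL-21 at the same dose for every tested member, at each of the 4 doses. Each point is a gene, with called genes marked; at 100 pM and 1 nM all called members lie above 0, at 10 nM none is called, and at 100 nM 6 lie above and 2 below 0.

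Whether 21h10 and mIL-21 differed more at 1 nM than at 100 pM was tested as an interaction, which called 2 members against 18.4% of all genes. With library totals the split was 1 higher and 2 lower, and with DESeq2 1 and 0. For Cycs the difference was larger at 1 nM, by 0.23 (SE 0.0667, edgeR adjusted p 0.0229), and for Cox7a1 it went the other way, by -0.69 (SE 0.207, edgeR adjusted p 0.0274). The Cox7a1 levels above show the pattern, with 21h10 higher at 100 pM and mIL-21 higher at 1 nM. Neither call was stable to leaving out libraries: Cycs was lost without either duplicate of 21h10 at 100 pM or dup 2 of mIL-21 at 100 pM (0.18), and Cox7a1 without dup 1 of 21h10 at 100 pM or dup 2 of mIL-21 at 100 pM, mIL-21 at 1 nM or 21h10 at 1 nM (-0.65 to -0.56). The same test between 100 nM and 10 nM called 0 members by edgeR, DESeq2 and limma (1 with an unadjusted p under 0.05), against 0.922% of all genes.

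At the high doses fewer members differed by the test between the cytokines, in an experiment where the biological coefficient of variation was 8.80% against 4.32% in experiment 1. At 10 nM no member differed by edgeR, DESeq2 or limma, 11 had an unadjusted p under 0.05 by edgeR, and the log2 differences ran from -0.82 to 0.46, with 0.00726% of all genes called. At 100 nM, 6 members were higher with 21h10 and 2 lower, against 8.53% of all genes (4.02% higher and 4.52% lower). The 6 were Uqcrb (0.64), Ndufs5 (0.47) and Ndufv3 (0.45), and, chosen after their values were seen, Ndufa1 (0.58), Ndufa12 (0.57) and Ndufs6 (0.43), of which all but Uqcrb are accessory subunits of complex I. The lower ones were Sdhd, by -0.59 (SE 0.115, edgeR adjusted p 0.00445), and Ndufa10 (-0.26), also chosen after its values were seen. The 8 calls became 3 and 1 without dup 1 or dup 2 of 21h10 at 100 nM and 2 without either duplicate of mIL-21 at 100 nM. With library totals 6 were higher and 1 lower. Of the calls with values under each left-out library, Ndufs5 was lost without any of the 4 libraries compared, and Uqcrb, Ndufv3 and Sdhd were each lost without 2 of them.

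Ndufs5, a small subunit of the intermembrane side, was 1 of these 6. Its levels in experiment 2 were 39.3 and 40.4 without cytokine, 39.8 and 33.2 under mIL-21 at 10 nM, 40.0 and 37.0 under mIL-21 at 100 nM, 48.9 and 47.0 under 21h10 at 10 nM, and 51.3 and 55.2 under 21h10 at 100 nM. The 21h10 libraries at both doses lay above all mIL-21 and unstimulated libraries. Ndufa12 had 80.4 and 89.3 without cytokine, 73.0 and 52.7 under mIL-21 at 10 nM, 72.2 and 74.2 under mIL-21 at 100 nM, 74.7 and 94.6 under 21h10 at 10 nM, and 110.3 and 107 under 21h10 at 100 nM. Its 21h10 libraries at 100 nM lay above all others of the experiment. The 6 transcripts are 493 to 1579 bases long with a median of 535.0, against a median of 715.5 for the 72 members not called, and 4 of the 6 have a near-identical copy elsewhere in the genome, against 13 of the 72. Ndufa12 is covered at 71.0% by copies (mainly Gm15920), Ndufs5 at 60.8% (mainly BC002163) and Ndufs6 at 45.7% (mainly Ndufs6b). The part of length and of copies in this difference was not tested. From 10 nM to 100 nM no member was called with mIL-21 (0.0% of all genes, 1 member with an unadjusted p under 0.05, 0 by DESeq2 and limma), and with 21h10 only Sdhd, which fell (log2 -0.49, 5.33% of all genes called, 1.88% higher and 3.45% lower) and lost its call without dup 1 of 21h10 at 10 nM or either duplicate of 21h10 at 100 nM. By DESeq2, 2 members rose and 1 fell in this last comparison.

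The genes that build and feed the respiratory chain were counted over the same comparisons. The list of mitochondrial ribosome proteins, which translate the subunits encoded in mitochondrial DNA, had 76 genes tested, of which 64 to 67 were lower and 1 to 7 higher (medians -0.94 to -0.79) in the 4 groups of experiment 1 and 35 to 44 lower and 0 to 2 higher (medians -0.32 to -0.26) in experiment 2. Of 44 assembly factors, 33 to 37 were lower and 5 to 7 higher (medians -0.60 to -0.53) in experiment 1 and 16 to 20 lower and 2 to 5 higher (medians -0.25 to -0.21) in experiment 2. Of 20 genes of the citric acid cycle and pyruvate entry, 14 to 17 were lower and 3 to 4 higher (medians -0.56 to -0.52) and 8 to 10 lower and 1 to 2 higher (medians -0.23 to -0.18). Of 10 genes for other electron entry and for the export of ATP, 8 to 9 were lower and 0 to 1 higher (medians -0.65 to -0.56) and 9 to 10 lower and 0 higher (medians -0.69 to -0.62). Of 16 genes for the transcription and copying of mitochondrial DNA and their nuclear regulators, 12 were lower and 0 to 2 higher (medians -0.64 to -0.43) and 4 to 6 lower and 0 to 1 higher (medians -0.12 to -0.03). In each list and in both experiments more genes fell than rose. Among all genes, 39.4% to 42.1% were lower and 38.3% to 40.2% higher in the 4 groups of experiment 1. In experiment 2, 23.7% to 25.8% were lower and 22.5% to 25.2% higher. For the 16 regulators in experiment 2, the 4 to 6 lower ones ran from near the share of all genes to somewhat above it. With 21h10 against mIL-21 at 100 pM, 16 mitochondrial ribosome genes were higher and 5 lower, 7 and 6 of the assembly factors, 6 and 3 of the citric acid cycle list, 2 and 1 of the electron entry list, and 1 and 5 of the regulators, where 19.6% of all genes were called higher and 19.0% lower.

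A window of 250 bases before to 50 after a RefSeq start (GRCm38.p6) was at hand for 70 of the 86 members. Where no window was listed at the outer end of the gene span, the first listed was taken, as for Atp5g1 and Atp5g3. Each window was searched on both strands for exact matches to the motifs of factors known to bind promoters of respiratory genes. The NRF-1 motif (GCGCA, any base, GCGC) was in 16 of the 70 (22.9%), against 6.60% of all 17492 windows of this length, and the YY1 motif AAGATGGC in 10 (14.3%), against 3.21%. The ETS motif CCGGAAG was in 15 (21.4%), against 11.9%, and the E-box CACGTG in 7 (10.0%), against 7.91%. Among members lower in all 4 groups of experiment 1, 13 of the 46 with a window (28.3%) held the NRF-1 motif, and 2 of 11 (18.2%) among those higher in all 4, Atp5g2 being 1 of these. The last share rests on few genes, and the absence of these letters says nothing about binding elsewhere.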

How the data were processed

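Total RNA of 20 samples of mouse CD8+ T cells was sequenced as poly(A) libraries (KAPA mRNA HyperPrep, Illumina NovaSeq). The authors mapped reads to mm10 (GRCm38), and the submitters' processing notes name Bowtie2 2.2.6, TopHat2 2.0.11, SAMtools 0.1.8, bedtools 2.25.0 and edgeR. The deposited tables hold, for each of 31682 RefSeq transcripts, raw read counts per library and the RPKM the authors computed from them. Whether counting used strand is not given in the sources used here; 26 members share exonic bases with a gene on the other strand and 5 with one on the same strand, and 17 have a near-identical copy elsewhere (BLAST 2.17.0, identity of at least 97% over at least 100 bases).

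Groups were taken from the sample titles, in which WT stands for mIL-21 and h10 for 21h10. Each symbol was represented by its longest transcript. Counts were tested with edgeR 4.0.16 in R 4.3.3 (filterByExpr with a least count of 10 and a least total of 15, TMM, glmQLFit and glmQLFTest), over 13974 genes in experiment 1 and 13772 in experiment 2, fitting the 10 libraries of each experiment jointly with group as the factor. The fit of all 20 libraries tested 14530 genes. Calls needed an adjusted p (Benjamini-Hochberg, over all genes) under 0.05. Levels were computed from counts, transcript length and TMM-scaled library size. Standard errors are the log2 fold change divided by the square root of its F statistic. The script was tested on simulated data.

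Alternatives were DESeq2 1.42.0, no filter on low counts, limma 3.58.1 on log2(RPKM + 1) where 2 or more libraries reached an RPKM of 1, library totals without TMM, the compared groups alone, the most-read transcript of a gene, a replicate block, and each library left out. The members and lists were chosen with earlier results of these data known. Named were the highest and lowest member of each complex in 21h10 at 1 nM and at 100 nM against unstimulated cells, the most abundant member of each, alternative subunit forms, and fixed core subunits, with others said to be chosen after their values were seen. Promoter windows are from RefSeq (GRCm38.p6), and exons from GENCODE.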

Additional observations from a re-analysis of the deposited data

Results flagged for a closer look

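For 24 of the named members the mean response to cytokine differed between the experiments in the fit of all 20 libraries (edgeR quasi-likelihood, Benjamini-Hochberg adjusted p under 0.05, values are log2 differences of experiment 2 minus experiment 1). Doses and experiments changed together, so their parts in these differences cannot be told apart. The response was higher in experiment 2 in complex I for Ndufa5 (1.45), Ndufs1 (0.81) and Ndufs5 (0.83). It was higher in complex II for Sdhb (0.37) and Sdhd (0.54), in complex III for Cyc1 (0.41) and Uqcrb (0.79), and for Cycs (2.33). In complexes IV and V it was higher for Cox5b (0.49), Atp5a1 (0.46), Atp5g1 (0.71) and Atp5g3 (0.59).

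The response was lower in experiment 2 for Ndufv3 (-1.63) and Sdhc (-0.40), in complex III for Uqcrfs1 (-0.25) and Uqcrh (-0.33), in complex IV for Cox6b2 (-2.45), Cox7a1 (-2.56), Cox7a2 (-0.47), Cox7a2l (-0.89) and Cox8a (-0.63), and in complex V for Atp5e (-0.62), Atp5g2 (-1.46) and Atp5sl (-0.47). Without dup 1 of the unstimulated cells of experiment 2 the difference of Atp5e was no longer called (-0.18). That of Cyc1 was lost without dup 2 of the unstimulated cells of either experiment (0.37 and 0.15), and that of Uqcrfs1 without any of 7 libraries.

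The difference between 21h10 and mIL-21 changed with dose in experiment 1 for Cox7a1 (-0.69) and Cycs (0.23), as the interaction test in the same model gave (1 nM minus 100 pM on the log2 scale).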

How the results depend on the processing

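Of 241 alternative values for the 20 counts of called members, 26 were lower and 11 higher than the main count by over 1.5 times, and the rest were not. The causes were not tested. For 21h10 against mIL-21 at 100 pM (31 calls), limma on log2(RPKM + 1) gave 13, library totals 16 and a fit of the compared groups alone 48. At 1 nM (14) library totals and the compared groups alone gave 8 each, for the mIL-21 doses of experiment 1 (18) library totals gave 11, and at 100 nM (8) the compared groups alone gave 14. At 10 nM (0) no filter on low counts gave 2 and the compared groups alone 1. For the 21h10 doses of experiment 2 (1) DESeq2 gave 3, no filter 2, limma 0 and the compared groups alone 7, and for the interaction of experiment 1 (2) DESeq2 gave 1.

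With each library left out in turn, the counts against unstimulated cells ran over 72 to 76, 68 to 75, 66 to 70 and 64 to 68 in experiment 1 (mIL-21 at its lower and higher dose, then 21h10), and over 27 to 51, 26 to 52, 29 to 54 and 32 to 56 in experiment 2 (in the same order). They ran over 12 to 25 and 10 to 35 for 21h10 against mIL-21 at the lower and the higher dose of experiment 1, 0 to 0 and 1 to 3 at those of experiment 2, 5 to 32 and 5 to 9 for the doses of mIL-21 and 21h10 in experiment 1, 0 to 0 and 0 to 1 for those in experiment 2, 0 to 10 for the interaction of experiment 1, and 39 to 50 for the experiments compared. For 21h10 at 100 pM against mIL-21 at 1 nM and for the interaction of experiment 2 the count stayed at 0.

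Of the values of named members, 4 changed sign and were called, all with limma on log2(RPKM + 1) in experiment 2: Ndufs1 with 21h10 at 10 nM (-0.20, 0.06 by edgeR) and at 100 nM (-0.27, 0.02), Ndufv3 at 100 nM (-0.25, 0.04) and Cox7a2l at 100 nM (-0.27, 0.03). Of the called values, 3160 kept and 231 lost their call. Same-numbered duplicates did not deviate together in every pair of groups (correlations of deviations -0.062 to 0.029 in experiment 1 and -0.167 to 0.227 in experiment 2, where 3 of 10 pairs were over 0.1), so the numbers were not taken to pair the libraries, although dup 1 had the higher share of reads on members in every group of experiment 2. The fits with a replicate block gave 78, 73, 72 and 69 calls against unstimulated cells in experiment 1 and 51, 53, 49 and 52 in experiment 2, 30, 13, 0 and 8 for 21h10 against mIL-21 from 100 pM to 100 nM, 15, 7, 0 and 1 for the doses, and 53 for the experiments compared, all within 1.5 times the main counts. With duplicates, precision was set by the spread between libraries, with a biological coefficient of variation of 4.32% in experiment 1 and 8.80% in experiment 2, so small differences in experiment 2 were less detectable.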
